A study of Mus musculus with 24 samples.

Results

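The SOCS family comprises the suppressors of cytokine signalling Socs1 to Socs7 and Cish (also known as CIS). Its 8 genes were found by their symbols among the 23420 genes counted, and all 8 were present. They were followed through 24 mouse RNA-seq libraries, 16 of bone marrow-derived macrophages (BMDMs) and 8 of T helper 2 (Th2) cells, in 10 groups. The study asked what TET proteins, which oxidise 5-methylcytosine, and TDG, the glycosylase that removes the further oxidised bases, do in dividing and non-dividing immune cells. All mice were on the C57BL/6 strain and 8 to 16 weeks old, and both Cre-carrying and control mice had received tamoxifen. TET iTKO mice carried floxed Tet1, Tet2 and Tet3, TDG iKO mice carried floxed Tdg, and each was compared with wild type (WT) mice of its own cohort. Deletion was driven by a CreERT2 transgene inserted at the Ndor1 locus, and the floxed lines carried a Rosa26 fluorescent reporter of Cre activity. BMDMs were grown from bone marrow in L929-conditioned medium with M-CSF and collected before (0 h) or after 6 h with KLA, a lipid A agonist of Toll-like receptor 4. Each combination of cohort (Tet or Tdg), genotype and time had 2 BMDM libraries. Th2 cells were naive CD4+ T cells from the spleen and lymph nodes of the Tdg cohort, activated with anti-CD3 and anti-CD28 under IL-4 and anti-IFN-γ and then expanded in IL-2, with 4 libraries for WT and 4 for TDG iKO.

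Cytokines of the interleukin, interferon and haematopoietin families signal through receptors bound by JAK kinases, which phosphorylate STAT transcription factors. SOCS genes are induced by this signal, and in macrophages also downstream of Toll-like receptors, and their proteins feed back on it. Socs1 and Socs3 inhibit JAKs directly through a kinase inhibitory region, Cish and Socs2 bind receptor phosphotyrosines, and the SOCS box of every member recruits an elongin and cullin ubiquitin ligase. Socs4 to Socs7 have longer amino-terminal regions and are better known for binding receptor tyrosine kinases and adaptor proteins. Socs3 is the main brake on signalling by interleukin 6 and G-CSF through their receptors.

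In the mm9 genome the members lie on 7 chromosomes, and the only one that shares its position with another annotated gene is Cish, which overlaps Gm17040 and Gm17041 on the opposite strand. Socs3, the gene on which most of the results below turn, is on chr11:117827393-117831361 on the minus strand. Socs1 is on chr16:10783901-10785629, also on the minus strand. RefSeq promoter sequence (GRCm38.p6) was matched for 4 of the 8 members, Socs1, Socs3, Socs4 and Cish. The 250 bases before their start were searched on both strands for the STAT site TTCNNNGAA (GAS), its spacing variant with 4 bases between the same ends, and the kappaB consensus. The Socs3 window held 1 GAS match, 154 to 146 bases before the start, and no other match was found in the 4 windows. The GAS letters occurred in 7.02% of all 32851 promoter windows of this length, the spacing variant in 5.85% and the kappaB consensus in 3.9%. The stretch around the match, at chr11:117969482-117969550 of GRCm38.p6 on the minus strand, is shown 5′ to 3′ because Socs3 is the member with the largest KLA response, with the match in capitals.
Socs3: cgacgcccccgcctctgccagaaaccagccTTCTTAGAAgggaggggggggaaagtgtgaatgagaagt
A match of letters is a description only, and no binding was measured here.

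The libraries held between 4982950 counts assigned to genes (WT, 0 h, replicate 2, Tdg cohort) and 26657729 (Th2 WT replicate 4), with a median of 14853861. Levels are given as normalised counts, which are counts divided by a size factor for each library. Replicates 3 and 4 of each Th2 genotype differed by little more than counting noise and were counted as 1 sample, so n = 3 per Th2 genotype and n = 2 per BMDM group. Nothing in the labels says that the replicates came from separate mice, so the p-values measure the spread between these samples, which may be technical. Summed macrophage markers were 308839 to 399756 normalised counts in the BMDM libraries and at most 639.7 in Th2 libraries, and summed T cell markers were 24369 to 34383 in Th2 and at most 386 in BMDMs. Gene counts checked the labels only in part. They do not resolve the floxed exons, and Tet2 and Tet3 were not lower in TET iTKO. Tdg was near 0 in all BMDM groups, WT included, so its counts could not show a loss. The study quantified Tdg transcripts by qRT-PCR relative to WT, and a count near 0 is not taken here as absence of the RNA. Ndor1, the Cre insertion site, was 393 ± 37.9 in WT and 239.8 ± 13.2 in TET iTKO at 0 h (SD, n = 2, DESeq2 adjusted p = 0.00749). For TDG iKO against WT, 0 of the 5 genes Tet1, Tet2, Tet3, Tdg and Ndor1 were called at 0 h, at 6 h or in Th2 cells. The TDG iKO labels were therefore not checked by gene counts. Fewer cells of a type and less RNA per cell cannot be told apart in these bulk libraries.

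The family had a different make-up in each of 3 states: resting BMDMs, KLA-treated BMDMs and Th2 cells. On a per-length scale (transcript abundance scaled to a fixed total, TPM, from merged exon lengths), resting WT BMDMs of the Tet cohort held 6 members at similar levels: Socs3 at 19.2 TPM, Socs5 at 17.7, Socs6 at 16.8, Socs4 at 10.7, Socs7 at 9.53 and Socs1 at 6.38. Socs2 and Cish were close to absent there, at 0.0128 and 0.0909 TPM. After 6 h of KLA Socs3 alone stood at 301.7 TPM, and its share of the family's summed TPM was 83.2% against 23.8% at 0 h. In WT Th2 cells Socs1 had the highest mean level per length at 331.4 TPM, followed by Socs3 at 211.1, Cish at 184.9 and Socs2 at 100.9. The place of Socs3 in this order differed between samples. It was at 119.6 and 83.4 TPM in replicates 1 and 2, below Cish at 179.9 and 163.9. In replicates 3 and 4 it was at 428.0 and 432.5 TPM, against 410.7 and 443.8 for Socs1. The remaining 4 members were each at 14.7 TPM (Socs7) or less. The summed family level was 80.4 TPM in resting WT BMDMs, 362.6 after KLA and 869.5 in WT Th2 cells. These are levels of RNA per length and were not tested between members. Their order and shares depend on the exon lengths, which were merged over all annotated transcripts. The lengths were 1220 bases for Socs1, 2891 for Socs3, 6419 for Cish and 9532 for Socs2. By mean normalised counts the order in WT Th2 cells was another one, with Cish at 4512, Socs2 at 3688, Socs3 at 2280 and Socs1 at 1532. Socs3 ran from 942 to 4576 over these libraries, so its place in this order differed between samples too.

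**Figure D1:**
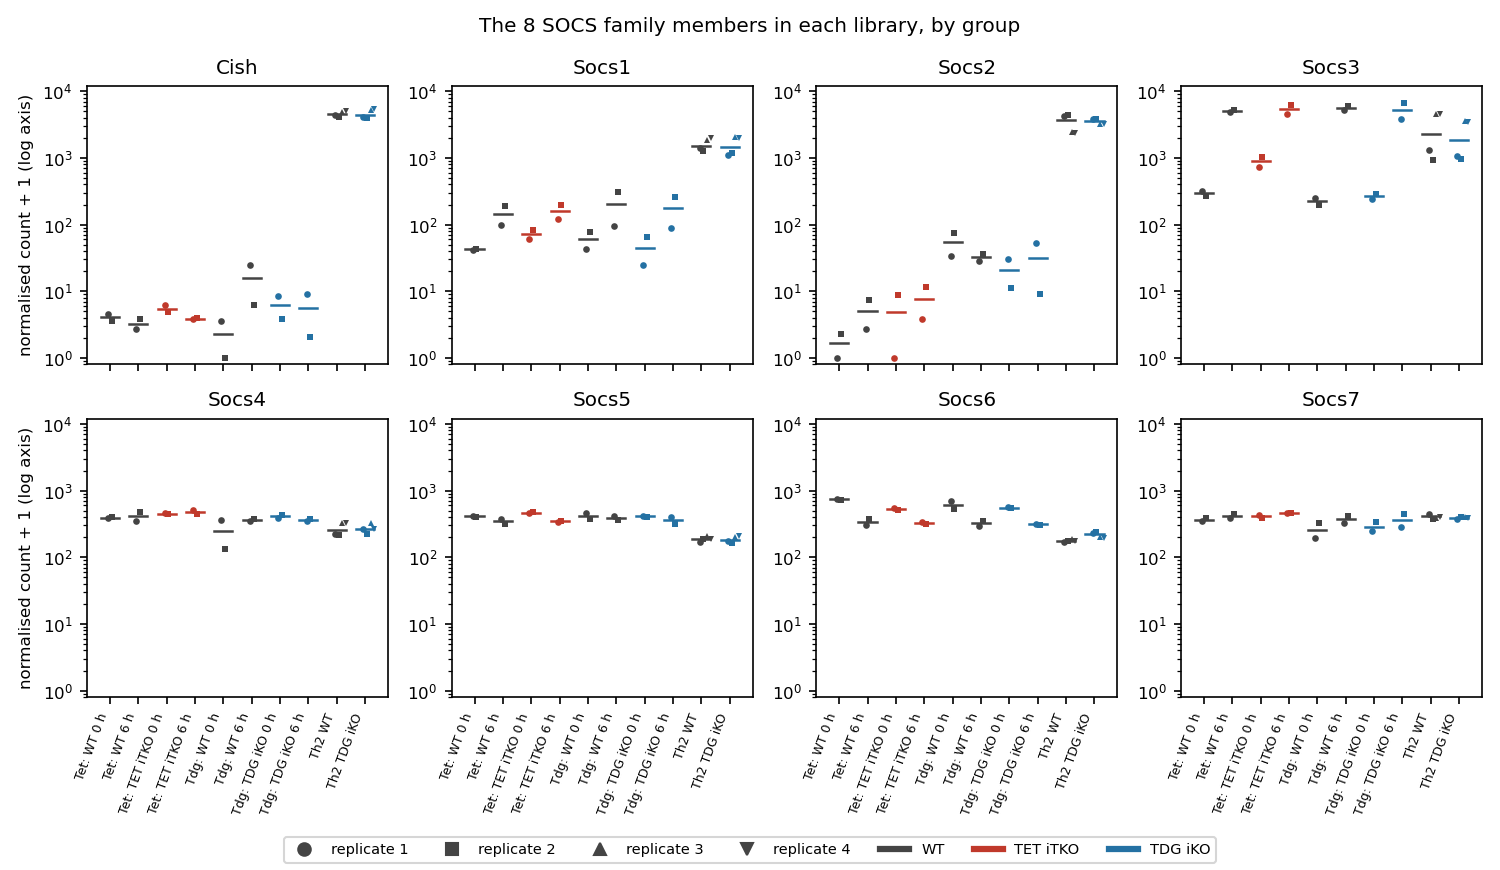
Normalised count plus 1 (log axis) of each of the 8 members in each of 24 libraries, by group; symbols are replicates, horizontal lines group means in which Th2 replicates 3 and 4 count once, and colours genotypes. Socs3 and Socs1 are higher at 6 h than at 0 h in every set of BMDMs, Cish and Socs2 are at 2399 or more in Th2 cells and at most 73.1 in BMDMs, and Socs4, Socs5 and Socs7 stay between 131 and 518 in all BMDM libraries.

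**Figure D2:**
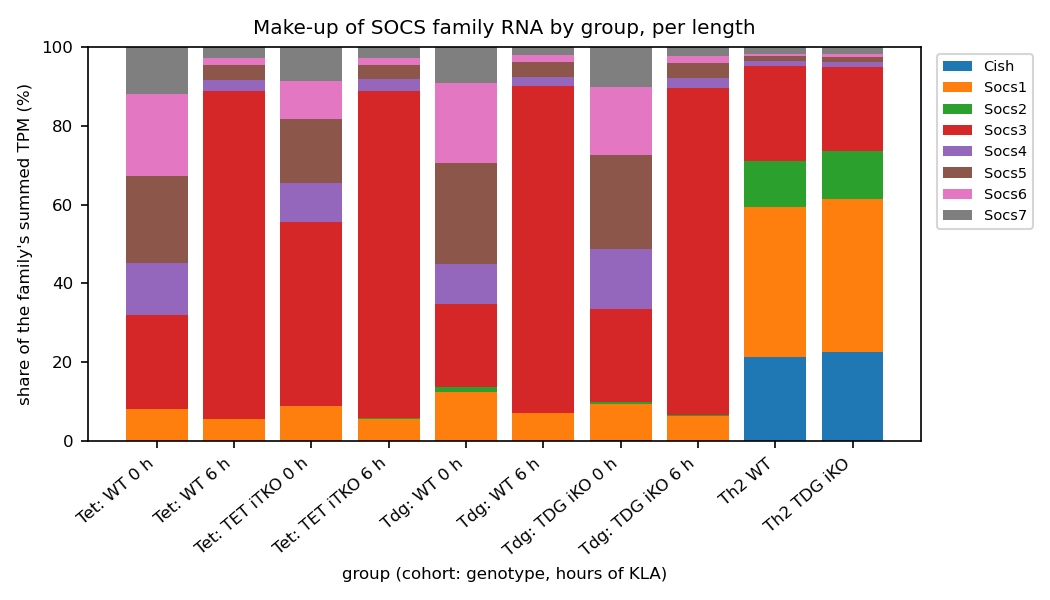
Share of the family's summed TPM (%) taken by each member, as stacked bars for the 10 groups, from group means. The shares depend on exon lengths merged over all annotated transcripts. Socs3 takes 83.2% in WT BMDMs of the Tet cohort after KLA and 46.6% in resting TET iTKO BMDMs against 23.8% in resting WT.

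Socs3 carried the KLA response of the family. Normalised counts in WT BMDMs of the Tet cohort were 323 and 265 at 0 h and 4912 and 5305 at 6 h. All KLA-treated libraries stood far above the untreated ones. The log2 fold change was 4.13 (SE 0.168, 17.5-fold, adjusted p = 6.43e-130), and by p Socs3 ranked 13th of 11917 genes tested. In the Tdg cohort WT BMDMs were at 249 and 198 at 0 h and at 5189.9 and 6113 at 6 h, again with no overlap, a log2 change of 4.66 (SE 0.365, 25.2-fold, adjusted p = 5.52e-34).

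Socs1, the other member with a kinase inhibitory region, was induced from a low level. Normalised counts in WT BMDMs of the Tet cohort were 40.4 and 42.3 at 0 h and 96.1 and 192 at 6 h. Both treated libraries were above both untreated ones, and the replicates at 6 h lay further apart than the untreated ones. The log2 fold change was 1.81 (SE 0.379, 3.50-fold, adjusted p = 1.89e-05). In the Tdg cohort WT BMDMs were at 42.3 and 76.1 at 0 h and at 94.6 and 308 at 6 h. The samples did not overlap there either, with a rise from 42.3 to 94.6 in replicate 1 and from 76.1 to 308 in replicate 2. With this spread the log2 change of 1.79 (SE 0.766) did not pass the test, which did not block by replicate (adjusted p = 0.143).

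Socs6, a gene on the minus strand of chr18:88834616-89096873 in mm9, was the member that fell. In WT BMDMs of the Tet cohort its level went from 747 and 724 normalised counts at 0 h to 307 and 377 at 6 h. The groups did not overlap, and the log2 fold change was -1.10 (SE 0.165, adjusted p = 5.01e-10). The Tdg cohort gave 689.6 and 529.9 at 0 h and 295 and 349 at 6 h, a log2 change of -0.92 (SE 0.301, adjusted p = 0.0293). That second call was lost with edgeR (adjusted p = 0.1004) and without WT 0 h replicate 1 (-0.73, adjusted p = 0.104), WT 6 h replicate 1 (-0.79, adjusted p = 0.343) or WT 6 h replicate 2 (-1.06, adjusted p = 0.219).

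Of the 8 members, 2 rose and 1 fell in the Tet cohort WT response, in which 24.1% of all genes tested were called. The median log2 change of the 8 was 0.14, against -0.01 over all genes tested. In the Tdg cohort WT response 1 member rose and 1 fell, where 8.6% of all genes tested were called. Socs4, Socs5 and Socs7 did not pass the test in either WT response. Their levels at 0 h and 6 h in the Tet cohort were 387, 395, 352 and 479 for Socs4, 417, 408, 379 and 312 for Socs5, and 343, 392.1, 381 and 450.4 for Socs7. The pathway around them moved too: of the listed cytokine genes that signal through JAKs 6 of 11 tested rose and none fell in the Tet cohort WT response, and of the receptor genes 11 of 26 rose and 5 fell. Jak2, a kinase inhibited by Socs1 and Socs3, rose by a log2 change of 2.77, Tyk2 by 0.85 and Jak1 by 0.34, so 3 of the 4 JAK genes were higher after KLA. Of the other inhibitors of the pathway 5 of 11 rose, led by the phosphatase genes Ptpn6 (1.14) and Ptpn2 (0.69). Of the 6 genes for the ubiquitin ligase that the SOCS box recruits only Tceb1, which encodes elongin C, was called (0.35).

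The comparison of genotypes turned on Socs3 before KLA. In TET iTKO BMDMs Socs3 was at 742 and 1034 normalised counts at 0 h, both above the 323 and 265 of WT. The log2 difference was 1.60 (SE 0.171, 3.03-fold, adjusted p = 5.82e-18), and it was called in every alternative analysis (edgeR after its expression filter, adjusted p = 0.00139). After 6 h of KLA TET iTKO BMDMs were at 4621 and 6239.7, on either side of the WT values. The difference at 6 h was 0.08 on the log2 scale (95% interval -0.23 to 0.40, adjusted p = 0.902). The mean level at 0 h was 16.4% of the level at 6 h in TET iTKO and 5.76% in WT.

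The KLA response of Socs3 was smaller on the log scale in TET iTKO, 2.61 (SE 0.163, 6.11-fold, adjusted p = 2.87e-55). The difference of the responses, TET iTKO minus WT, was -1.52 (SE 0.235, 95% interval -1.98 to -1.06, adjusted p = 2.31e-07). It was the one member called, in a comparison in which 0.426% of all genes tested were called (52 of 12200), and it ranked 5th of the 12200 by p. Without each library in turn it stayed between -1.75 and -1.27 and was called each time. It was not called by edgeR's quasi-likelihood test after its expression filter (-1.52, adjusted p = 0.114), a fit in which 1 gene was called in all, and it was called by the same test without that filter (adjusted p = 1.94e-17).

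**Figure D3:**
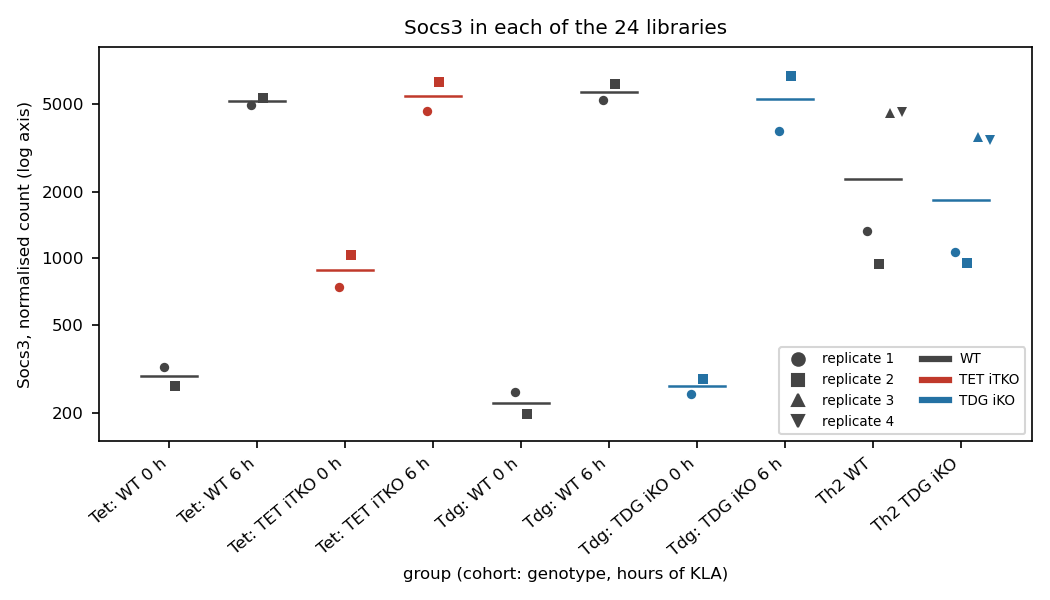
Socs3 normalised count (log axis) in each of the 24 libraries by group, with symbols for replicates, lines for group means in which Th2 replicates 3 and 4 count once, and colours for genotypes. The resting TET iTKO libraries (742 and 1034) sit above all 6 other resting BMDM libraries (198 to 323), the KLA-treated libraries of all genotypes overlap, and Th2 replicates 3 and 4 sit above replicates 1 and 2.

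Other values moved with resting Socs3 in TET iTKO. At 0 h the summed neutrophil markers S100a8, S100a9, Elane and Mpo were 881 and 1798 normalised counts in TET iTKO and 389 and 726 in WT, and the progenitor markers Cd34 and Kit summed to 76.9 and 294 against 35.9 and 37.7. Cd79a and Ms4a1, genes of B cells, were higher in TET iTKO, Cd79a at 30.7 and 73.0 against 7.80 and 8.08 (log2 difference 2.71, adjusted p = 0.00191) and Ms4a1 at 9.22 and 79.1 against 4.49 and 7.15 (2.91, adjusted p = 0.0257). Summed dendritic cell markers were at 15.4 in each TET iTKO library against 2.60 and 2.69 in WT, and none of them was called. The summed macrophage markers were lower, at 308839 to 310506 against 366137 to 377876. Lyz2, with a mean of 268618 normalised counts over the Tet cohort, made up most of this sum (log2 difference -0.41). Of the 7 macrophage markers 3 were called lower and 1 higher, with a median log2 difference of -0.0018. Summed markers of CD8 T and NK cells and of mast cells and basophils were at most 6.91 in these 4 libraries. No marker of the neutrophil or progenitor lists was at 0 in a whole group at 0 h, and the part of all these markers in the Socs3 level was not tested. By replicate at 0 h, neutrophil marker sums and Socs3 levels were 881 with 742 and 1798 with 1034 in TET iTKO. In WT of the Tet cohort they were 389 with 323 and 726 with 265. In the Tdg cohort they were 2094 with 249 and 563 with 198 in WT, and 6178 with 245 and 413 with 287 in TDG iKO. Of 9 genes listed as a check of the KLA response, 4 were also called higher in resting TET iTKO BMDMs and none lower. Over all genes tested 7.5% were called in this comparison. The 4 included Il1b (log2 change 3.82), Ptgs2 (2.54) and Cxcl2 (1.31). Il6, whose receptor Socs3 restrains, was at 0 and 0.650 normalised counts in resting WT and at 6.15 and 23.04 in resting TET iTKO.

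Socs6 was the other member whose resting level passed the test. It was at 549 and 511 normalised counts in TET iTKO against 747 and 724 in WT, below in both libraries, with a log2 difference of -0.47 (SE 0.162, adjusted p = 0.0484). This call was lost when any 1 of the 4 libraries was left out (adjusted p between 0.131 and 0.604). Socs1 was at 59.4 and 81.4 in TET iTKO against 40.4 and 42.3, higher in both libraries but not called (0.77, SE 0.388, adjusted p = 0.283). Socs2, at 0 and 2 counts in WT and 0 and 10 in TET iTKO, was not called. Of the 8 members 1 was called higher and 1 lower at 0 h, where 7.5% of all genes tested were called. The median log2 difference of the 8 was 0.37 against 0.01 over all genes tested, and of the members above 0 only Socs3 was called. At 6 h DESeq2 called 0 of the 6 members tested, with 0 at an unadjusted p under 0.05 and 0 called by edgeR with or without its filter, where 6.58% of all genes tested were called. Socs1 was at 119 and 195 in TET iTKO at 6 h, overlapping the WT values, a difference of 0.12 (95% interval -0.59 to 0.83). Socs6 was at 341 and 311, also overlapping WT, a difference of -0.08 (95% interval -0.41 to 0.26).

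In TET iTKO itself KLA raised 2 members and lowered 2 of the 6 that DESeq2 tested, where 24.4% of all genes tested were called. Socs2 and Cish, with at most 14 counts in these libraries, received no adjusted p. Socs1 rose by 1.15 on the log2 scale (SE 0.370, adjusted p = 0.00981), a call lost without TET iTKO 0 h replicate 1 (0.96, adjusted p = 0.177) or 6 h replicate 2 (0.75, adjusted p = 0.337). Socs6 fell by 0.70 (SE 0.167, adjusted p = 2.18e-04). Socs5, an inhibitor linked to EGF receptor and interleukin 4 signalling, was at 455 and 478 at 0 h and at 339.6 and 352 at 6 h. Its log2 change of -0.43 passed the test (SE 0.1697, adjusted p = 0.0471), but not with TMM scaling (adjusted p = 0.0503) or without any 1 of the 4 libraries of this genotype (adjusted p between 0.165 and 0.279). In WT the change of Socs5 was -0.25 (adjusted p = 0.344). The difference of responses, TET iTKO minus WT, did not pass the test for Socs1 (-0.65, 95% interval -1.69 to 0.39) or Socs6 (0.39, 95% interval -0.07 to 0.85).

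In TET iTKO BMDMs the listed pathway genes were read against the 24.4% of all genes called in the KLA response and the 7.5% at 0 h. Among the listed cytokines 7 of 11 rose with KLA and none fell, among the receptors 8 of 25 rose and 7 fell, and 3 of 4 JAK genes rose (Jak2 by 2.58). At 0 h 2 of 12 cytokine genes were higher in TET iTKO than in WT, and 7 of 27 receptor genes were higher and 2 lower. The receptor genes with the largest differences were Il23r, the interleukin 23 receptor (2.28, adjusted p = 1.24e-15), Il13ra1, a chain of the interleukin 13 receptor (-1.63, adjusted p = 6.44e-06), and Csf2ra, the GM-CSF receptor chain (-0.55, adjusted p = 5.26e-04). Jak2 was higher by 0.60 at 0 h (adjusted p = 6.49e-04) and by 0.42 at 6 h (adjusted p = 0.0360). Of the receptor genes only Il21r joined Socs3 among those whose KLA response differed between the genotypes (-0.72, adjusted p = 0.0499), and none of the cytokine, JAK, other inhibitor or ligase genes tested did by DESeq2.

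**Figure D4:**
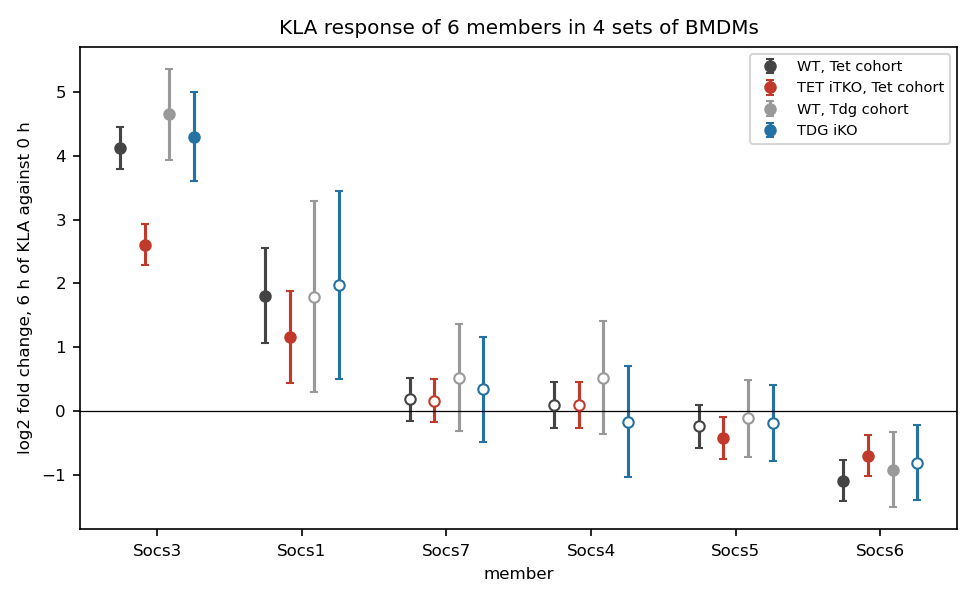
Log2 fold change from 0 h to 6 h of KLA with 95% intervals for 6 members in the 4 sets of BMDMs; filled points passed the test and open points did not, and Socs2 and Cish are left out for low counts. For Socs3 the TET iTKO point (2.61) lies below the points of both WT sets (4.13 and 4.66) and of TDG iKO (4.31), and Socs6 is below 0 in all 4 sets.

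Loss of TDG gave no called difference in any member. Socs3 in TDG iKO BMDMs was at 245 and 287 normalised counts at 0 h and at 3777 and 6690.4 at 6 h, overlapping WT at both times. Its KLA response was 4.31 (SE 0.356, 19.8-fold, adjusted p = 1.96e-30), and the difference of the responses, TDG iKO minus WT, was -0.35 (95% interval -1.35 to 0.65). Without a replicate block Socs3 was the 1 member called in the TDG iKO response, where 7.08% of all genes tested were called. With the replicate block Socs1 and Socs6 were called as well, with the values given in the closing section. Socs1 in TDG iKO went from 23.4 and 65.0 to 88.0 and 259, with no overlap, and its log2 change of 1.97 did not pass without a replicate block (adjusted p = 0.102). Socs6 went from 562 and 546 to 318 and 309, also with no overlap, and its change of -0.81 did not pass without a replicate block (adjusted p = 0.0783).

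For the difference of responses between TDG iKO and WT, and for TDG iKO against WT at 0 h and at 6 h, DESeq2 called 0 of the 8 members and 0% of all 15026 genes tested in each comparison. No member had an unadjusted p under 0.05 (37, 265 and 34 of all genes did), and edgeR with or without its filter called 0 members. Each of these numbers of genes is under the share of 0.05 expected if no gene differed, so the unblocked DESeq2 test was conservative. The lack of calls therefore does not show that the members were unchanged. For Socs3 the differences were 0.24 at 0 h (95% interval -0.48 to 0.96) and -0.11 at 6 h (95% interval -0.80 to 0.58). Socs4 was the member in which 1 library decided the outcome. It was at 360.2 and 131 in WT at 0 h and at 391.9 and 424 in TDG iKO, and the lower WT value came from the library with the fewest counts. Without WT 0 h replicate 1, which leaves that library alone in its group and assumes that it varies like the others, Socs4 was called higher in TDG iKO at 0 h (1.61, adjusted p = 0.00142), with a smaller KLA response (-1.60, adjusted p = 0.0313). The same refit called its WT response to KLA (1.43, adjusted p = 0.00270) and the TET effect minus the TDG effect at 0 h (-1.40, adjusted p = 0.00148). Without WT 0 h replicate 2 the 0 h difference was 0.20 (adjusted p = 1).

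Whether the resting Socs3 level responded more to TET loss than to TDG loss was tested over all 16 BMDM libraries. The TET effect minus the TDG effect at 0 h was 1.36 on the log2 scale (SE 0.426, 95% interval 0.53 to 2.20), with an adjusted p of 0.183 that did not pass. In this comparison 0 of 7 members tested were called, 2 had an unadjusted p under 0.05 (Socs3 and Socs2), edgeR with or without its filter called 0, and 0.355% of all genes tested were called. The refit with a replicate block did call Socs3 at 0 h, with the value given in the closing section. At 6 h 0 of 8 members were called by DESeq2 or edgeR and 0 had an unadjusted p under 0.05, where 0.0765% of all genes tested were called.

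Th2 cells differed from BMDMs in 6 of the 8 members, with 4 higher and 2 lower in Th2 WT than in resting BMDM WT of both cohorts, where 54.8% of all genes tested were called. Cell type, culture and, for the Tet cohort libraries, cohort cannot be told apart in this comparison. Cish, a classical target of interleukin 2 and STAT5 signalling, was at 4455, 4111, 4965 and 4975 normalised counts in the 4 WT Th2 libraries and at 3.59, 2.60, 2.56 and 0 in the resting WT BMDMs. Summed over libraries these were 28090 against 10 counts, a ratio of 2351 relative to library totals (95% counting interval 1278 to 4904), with a log2 change of 10.75 in the fit (SE 0.524, adjusted p = 4.10e-91). Socs2, another STAT5 target, was at 4187, 4435, 2485 and 2399 in Th2 WT. The resting WT BMDMs held 0 and 1.30 in the Tet cohort and 33.3 and 73.1 in the Tdg cohort. Th2 libraries were above all BMDM libraries, with 17005 against 52 counts, a ratio of 274 (95% counting interval 209 to 367) and a log2 change of 7.12 (SE 1.62, adjusted p = 3.78e-05). Since the BMDM cohorts themselves differed, the ratio was 84.2 against the Tdg cohort alone, and intervals of counts cover counting error only.

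Socs1, which restrains interferon and interleukin 4 signalling in T cells, was at 1426, 1258, 1844 and 1981 normalised counts in Th2 WT and at 40.4 to 76.1 in resting WT BMDMs. The log2 change was 5.01 (SE 0.316, 32.2-fold, adjusted p = 1.05e-54). Socs3 was at 1334, 942, 4555 and 4576 in Th2 WT, with replicates 3 and 4 far above replicates 1 and 2. All were above the 198 to 323 of resting WT BMDMs, a log2 change of 3.15 (SE 0.514, 8.85-fold, adjusted p = 4.93e-09). Socs6 was at 169.8, 173, 189.7 and 174 in Th2 WT, below all resting WT BMDMs (529.9 to 747), a change of -1.94 (SE 0.220, adjusted p = 1.10e-17). Socs5 was at 169.8, 189.8, 205 and 189.99, below the 375 to 456 of resting WT BMDMs, a change of -1.15 (SE 0.205, adjusted p = 9.72e-08). Socs7 (0.39, adjusted p = 0.265) and Socs4 (-0.32, adjusted p = 0.517) overlapped between the cell types and were not called. Socs4 was called lower against the Tet cohort BMDMs alone (-0.66, adjusted p = 0.0449) and without the Tdg cohort WT 0 h replicate 2 (-0.62, adjusted p = 0.0276).

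The pathway genes are given beside the 54.8% of all genes called in this comparison. Of the listed cytokine genes 9 of 20 were higher in Th2 WT and 5 lower, and Lif, Il4 and Il13 had the largest changes. Among the receptors 8 of 30 were higher, led by the interleukin 2 receptor genes Il2rb and Il2ra, and 14 were lower, led by Csf3r, the G-CSF receptor. Jak3, the kinase of the common gamma chain, was higher by 3.32 and Jak2 by 1.72. Of 11 other inhibitors 2 were higher and 4 lower, a share near that of all genes, with the largest changes in Usp18, the interferon receptor inhibitor (-5.53), Ptpn2 (1.97) and Sh2b3 (-1.85). The median log2 change was 1.77 for the 8 members and 0.13 for all genes tested.

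**Figure D5:**
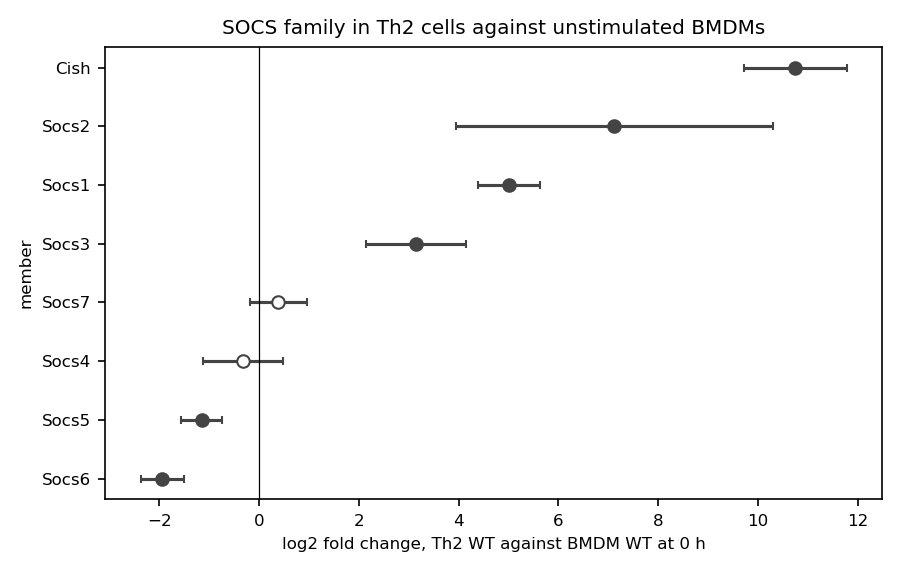
Log2 fold change of the 8 members in Th2 WT (n = 3) against resting BMDM WT of both cohorts (n = 4), with 95% intervals; filled points passed the test. Cish, Socs2, Socs1 and Socs3 lie above 0, Socs5 and Socs6 below it, and the intervals of Socs7 and Socs4 include 0.

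Within Th2 cells TDG loss gave 0 called members by DESeq2 and 0 by edgeR with or without its filter, and 0% of 15826 genes tested were called. No member and 77 of all genes had an unadjusted p under 0.05, fewer than that share of genes expected if none differed. The unblocked DESeq2 test was conservative here too. A fit that adds the replicate block called 15 genes, none of them a member. Socs3 in TDG iKO Th2 cells was at 1066.6, 949, 3533 and 3420.0, with the same split between replicates as in WT, and the log2 difference was -0.31 (95% interval -1.66 to 1.03). Socs6 was at 233, 237, 204 and 196, higher than every WT Th2 library, with a difference of 0.34 (95% interval -0.03 to 0.71, adjusted p = 1.00). Cish (3916 to 5369 in TDG iKO), Socs2 (3247 to 3857), Socs1 (1119 to 2054), Socs4 (221 to 328), Socs5 (161 to 209) and Socs7 (368 to 400.4) overlapped with WT.

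Over the 10 groups each member had its own order of levels. Socs3 was highest in the 4 KLA-treated BMDM groups, whose ranges overlapped from one neighbour to the next, followed by the overlapping Th2 groups. TET iTKO at 0 h came next, overlapped with Th2 TDG iKO above it and was separated from the 3 other resting BMDM groups below it. Socs1 was highest in the overlapping Th2 groups, then in the 4 overlapping KLA-treated groups, which did not overlap with resting TET iTKO, the next group down. Socs6 ran the other way, from 735 normalised counts on average in resting WT of the Tet cohort, separated from the next group, through the overlapping resting groups of the Tdg cohort and resting TET iTKO. The 4 KLA-treated groups followed, overlapping among themselves, and the Th2 groups were lowest and separated from each other. Socs5 ranged over 8 BMDM groups that overlapped from neighbour to neighbour, 466 to 346 on average, with both Th2 groups below them. In Socs4 and Socs7 most neighbours overlapped, and the lowest mean was resting WT of the Tdg cohort in each, at 246 and 259.7.

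Cish and Socs2 in BMDMs were too sparse for an order of groups, at 0 to 15 and 0 to 34 counts per library. Socs2 nevertheless differed between the cohorts, with 8 to 34 counts in each BMDM library of the Tdg cohort and 0 to 14 in those of the Tet cohort. In sum these were 179 against 38 counts, a ratio of 6.77 relative to library totals (95% counting interval 4.75 to 9.88). Cohort and any other difference between the 2 sets of cultures cannot be told apart.

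The genes whose levels followed a member most closely over the 16 BMDM libraries were sought among 9530 genes by Pearson correlation of log2 levels, as a description across libraries that share cohort, genotype and KLA treatment. For Socs3 they were Birc3, an inhibitor of apoptosis (r = 0.992), Fpr1, a formyl peptide receptor (0.992), and Pde4b, a cAMP phosphodiesterase (0.990). For Socs6 they were Nrp1, a semaphorin and VEGF co-receptor (0.967), Tmem55a (0.959) and Ncapg2, a condensin subunit (0.958).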

How the data were processed

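Libraries were made from polyA+ RNA with a directional kit. The authors aligned reads to mm9 with HISAT2 and counted them per gene with HTSeq, and the deposited values are raw counts per gene; their own tests used DESeq2 1.30.0. Versions of the aligner and counter, the annotation and the strand setting are not given in the sources used here. The 5 tallies of unassigned reads in each file (32.8% to 51.6% of all) were left out.

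Groups came from sample titles. Counts were tested with DESeq2 1.42.0 in R 4.3.3 (Wald test on group means, median-of-ratios size factors, Benjamini-Hochberg over all genes tested, threshold 0.05, two-sided), separately for the 8 BMDM libraries of each cohort, for Th2 cells, for Th2 WT against BMDM WT at 0 h and for all 16 BMDM libraries, each in 1 fit with a shared spread. DESeq2 gives no adjusted p to genes of low mean count. Th2 replicates 3 and 4 of each genotype were summed: their mean chi-square per gene was 1.34 (TDG iKO) and 1.51 (WT), against 21.3 to 218 for other Th2 pairs. Th2 replicates of equal number deviated together across the genotypes (r = 0.650 to 0.855). Some Tdg cohort BMDM libraries did too (r = 0.772 between 0 h and 6 h of TDG iKO, 0.725 between genotypes at 6 h). Equal numbers may thus be pairs in both, though no label says so. The main tests did not block by replicate, and in Th2 cells the block changed no member's call. TPM used exon lengths of GENCODE vM1 (21259 symbols matched, 90.77%). A level of 0 allows up to 3 counts, and intervals on counts are exact 95% intervals that cover counting error only.

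Alternatives were edgeR 4.0.16 (quasi-likelihood, TMM), TMM scaling in DESeq2, a minimum of 10 counts in 2 libraries, replicate blocks, the compared groups alone, Th2 replicates 3 and 4 kept apart, BMDM WT of 1 cohort at a time, and leaving out each library. edgeR after its expression filter was added after seeing the data, because without that filter its prior degrees of freedom were infinite in the Tet cohort. The code was tested on simulated data. Genes named were the 8 members, the targeted genes, and up to 3 called genes of each role list with the largest change and a mean of at least 50 normalised counts; Il6 values at 0 h stand as levels. Members and lists were chosen with earlier results of these data known. 1 marker of another cell type is not reported here, nor is the sum of its list.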

Additional observations from a re-analysis of the deposited data

Results flagged for a closer look

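The KLA response of Socs3 differed between TET iTKO and WT BMDMs of the Tet cohort. The difference, TET iTKO minus WT, was -1.52 on the log2 scale (DESeq2, adjusted p = 2.31e-07), with responses of 2.61 and 4.13, and it was not called by edgeR after its expression filter (adjusted p = 0.114).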

How the results depend on the processing

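The 19 called changes of members were refitted 223 times: 202 refits gave the same call, 21 lost it and 0 changed sign. Counts of called members moved as follows. edgeR after its expression filter called 0 for the TET iTKO difference of responses (DESeq2: 1). For the WT response of the Tdg cohort edgeR called 1 with or without that filter (DESeq2: 2). For the TET difference 52 genes were called by DESeq2, 270 by edgeR, 1 by edgeR after its filter, 90 with a replicate block, 225 with the block nested in genotype, 365 with both filter and nested block, and 14 (without TET iTKO 0 h replicate 2) to 155 (without WT 6 h replicate 1) when 1 library was left out. With both filter and nested block Socs3 was called (-1.52, adjusted p = 8.43e-07). With the replicate block 1 member was called for TET iTKO against WT at 0 h (without it 2; Socs6, adjusted p = 0.0577), 3 in the TDG iKO response (without it 1; Socs1 1.96, adjusted p = 9.01e-05; Socs6, adjusted p = 0.0366), and 1 for the TET minus TDG effect at 0 h (without it 0; Socs3 1.38, adjusted p = 0.0167). The block nested in genotype gave 2 in the TDG iKO response, with or without edgeR and its filter. BMDM libraries of equal number correlated in their deviations (r = 0.317 to 0.772 between 0 h and 6 h, 0.0214 to 0.725 between genotypes), and nothing in the labels pairs them.

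Leaving out 1 library gave 1 called member throughout for TET iTKO at 0 h, 2 to 3 in its KLA response (2 without 0 h replicate 1 or 6 h replicate 2), 1 to 2 in the WT and in the TDG iKO response of the Tdg cohort (WT: 1 without 6 h replicate 1 or 2; TDG iKO: 2 without 0 h replicate 2 or 6 h replicate 1), and 0 to 1 for the TDG difference, TDG iKO at 0 h and the TET minus TDG effect at 0 h. Each 1 there was Socs4 without Tdg WT 0 h replicate 1, a refit that called 1177 genes for TDG iKO at 0 h (0 with all libraries) and 2403 for the TET minus TDG effect (39). Uncalled changes that took another sign without 1 library, with their ranges, were Socs1 (-0.30 to 0.71, with another value of -0.28), Socs3 (-0.14 to 0.27) and Socs6 (-0.22 to 0.083) in TET iTKO at 6 h, Socs3 in the TDG difference (-0.82 to 0.017), in TDG iKO at 6 h (-0.58 to 0.25, with another value of 0.032) and in Th2 cells (-1.19 to 0.69, the lowest without TDG iKO and the highest without WT replicates 3 and 4), and Socs4 in the TET minus TDG effect at 0 h (-1.40 to 0.012). Against the Tdg cohort alone Socs4 in Th2 cells was 0.0042. Scaling levels to total counts moved 27 of 80 group means of members by more than 1 SD. The causes were not tested. With 2 libraries per BMDM group and few counts of Cish and Socs2, small differences were not detectable.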
